A study of Mus musculus with 16 samples.

Results

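The Rab genes encode small GTPases that mark the membranes of a cell and steer the vesicles that pass between them. They were taken here as the gene symbols made of Rab, a number and an optional letter and digit that have a place in the authors' normalized table, which gave 48 genes of 11843. All 48 passed the filter on low counts, which kept 11978 of the 24421 genes of the raw count table. The raw table holds 11 further symbols of this form (Rab15, Rab17, Rab25, Rab27b, Rab33a, Rab36, Rab3b, Rab3c, Rab40b, Rab42 and Rab9b), with 2 to 82 counts each summed over all libraries, and these were not tested. The members were sorted into 6 classes by the compartment each is best known for, and the lists of their regulators were drawn up in the same way.

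A Rab protein is active when it holds GTP and inactive when it holds GDP. Guanine nucleotide exchange factors (GEFs) load GTP, GTPase-activating proteins (GAPs) end the active state, and GDP dissociation inhibitors (GDIs) lift the inactive, prenylated protein off the membrane. Active Rabs recruit effectors such as tethers, motors and lipid kinases. In dendritic cells these pathways carry ingested antigen through endosomes and phagosomes, bring MHC molecules to the surface and release cytokines, and Rab43 is known for its part in cross-presentation by type 1 conventional dendritic cells (cDC1s), the subset that shows ingested antigen to CD8 T cells.

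RNA was sequenced in bulk from cDC1s sorted by flow cytometry from the spleens of C57BL6 mice at steady state. There were 16 libraries: 4 each of immature and of mature cells from Xbp1fl mice, and as many of each stage from Xbp1flIre1fl mice. In these mice the Xbp1 gene, or the Xbp1 and IRE1 genes, are flanked by loxP sites but not deleted, so that every group is functionally wild type per the series' design text. Neither the sort gates, the age of the mice nor the number of mice behind a library is given, so a p-value here reflects only how far libraries of a group differ, which may be technical. In bulk RNA, fewer cells that express a gene and less of its RNA per cell cannot be told apart.

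Total counts were 15083053 to 17000763 in the immature and 13948232 to 16572576 in the mature libraries. Markers of cDC1s were abundant in both stages but lower in mature libraries. Their summed level was 10080 to 11324 counts per 1e+06 counts (CPM) in immature and 6113 to 9331 CPM in mature libraries. Of 10 cDC1 markers, 2 were called higher and 6 lower in mature libraries, 1 of them by over 2-fold (median log2 fold change -0.36). All 9 of 9 markers of mature dendritic cells were higher in mature libraries (337 to 706 against 9584 to 23142 CPM). Markers of other cells also moved with stage. All 10 of 10 B cell markers were higher in mature libraries (104 to 163 against 309.9 to 1068 CPM), as were 9 of 11 macrophage markers (175 to 693 against 594 to 1234 CPM, ranges that overlap), 7 of 9 T cell markers (32.6 to 49.0 against 122 to 230.2 CPM), 4 of 5 plasma cell markers (88.2 to 232 against 142 to 681 CPM) and 5 of 9 cDC2 markers (243 to 293 against 359 to 525 CPM). These lists are not separate, as Irf4 is in both the plasma cell and cDC2 lists and Cd4 in both the T cell and cDC2 lists. Whether cDC1s themselves express some of these genes was not tested. Other lists did not rise in this way. NK cell markers had 0 of 6 higher and 1 lower (117 to 165 against 61.8 to 107 CPM), and neutrophil markers 0 of 6 higher and 1 lower. Plasmacytoid dendritic cell markers had 2 of 7 higher and 1 lower, and 0 of 3 platelet markers were called. Over all genes tested, 33.4% were called higher and 34.2% lower. No tested marker of these lists had 0 counts in the immature libraries. The part of these other cells in the Rab results was not tested, and the values without the mature library of each genotype richest in B cell or macrophage markers stand beside the results. Those richest in B cell markers, replicate 3 of each genotype, also had the most mature dendritic cell marker RNA of their groups (20153 CPM in Xbp1fl, 23142 CPM in Xbp1flIre1fl). In that fit the 2 cannot be told apart. The macrophage fit left out Xbp1fl replicate 1 and again Xbp1flIre1fl replicate 3.

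The promoters of 5 Rab genes that rose by over 2-fold (Rab20, Rab9, Rab21, Rab8b and Rab22a) and of the one that fell most (Rab39) are shown first, since the stage comparison turns on these genes. Each window runs 5′ to 3′ on the strand of the gene, from 250 bases before to 50 bases after the RefSeq start site in build GRCm38.p6. Capitals mark the palindromic E-box CACGTG, the letters read by MITF/TFE and MYC family factors, and the GC box GGGCGG, the letters read by SP family factors, searched on both strands so that CCGCCC is the reverse of the latter.
Rab20, chr8:11478591-11478890, - strand: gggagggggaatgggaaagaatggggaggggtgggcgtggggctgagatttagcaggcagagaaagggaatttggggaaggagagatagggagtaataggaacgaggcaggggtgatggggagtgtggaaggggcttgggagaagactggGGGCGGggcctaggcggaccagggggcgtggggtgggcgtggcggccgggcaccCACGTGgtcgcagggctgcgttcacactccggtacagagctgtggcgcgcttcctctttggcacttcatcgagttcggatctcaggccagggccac
Rab9, chrX:166479818-166480117, - strand: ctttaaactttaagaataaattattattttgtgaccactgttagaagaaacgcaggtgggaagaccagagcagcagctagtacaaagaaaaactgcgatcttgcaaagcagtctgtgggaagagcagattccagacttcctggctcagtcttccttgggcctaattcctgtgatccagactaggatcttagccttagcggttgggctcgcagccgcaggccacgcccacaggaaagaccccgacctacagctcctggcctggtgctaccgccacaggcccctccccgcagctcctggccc
Rab21, chr10:115315542-115315841, - strand: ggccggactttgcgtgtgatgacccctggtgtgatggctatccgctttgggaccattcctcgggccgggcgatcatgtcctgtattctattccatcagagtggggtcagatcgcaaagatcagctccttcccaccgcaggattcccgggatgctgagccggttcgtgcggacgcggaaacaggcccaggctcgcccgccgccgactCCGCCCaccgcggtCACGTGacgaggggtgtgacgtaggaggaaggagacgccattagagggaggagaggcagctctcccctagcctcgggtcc
Rab8b, chr9:66919656-66919955, - strand: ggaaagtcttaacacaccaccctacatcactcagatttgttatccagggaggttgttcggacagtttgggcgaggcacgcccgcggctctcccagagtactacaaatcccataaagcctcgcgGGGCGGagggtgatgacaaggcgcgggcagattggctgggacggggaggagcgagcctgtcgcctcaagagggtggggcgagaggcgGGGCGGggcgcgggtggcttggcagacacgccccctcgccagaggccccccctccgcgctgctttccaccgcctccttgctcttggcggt
Rab22a, chr2:173659595-173659894, + strand: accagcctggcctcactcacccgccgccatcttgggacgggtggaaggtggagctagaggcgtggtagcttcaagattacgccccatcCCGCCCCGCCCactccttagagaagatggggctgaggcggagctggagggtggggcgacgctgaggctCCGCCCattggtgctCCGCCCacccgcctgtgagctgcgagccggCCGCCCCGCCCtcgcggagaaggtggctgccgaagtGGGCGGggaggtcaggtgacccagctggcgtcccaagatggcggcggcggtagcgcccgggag
Rab39, chr9:53706183-53706482, - strand: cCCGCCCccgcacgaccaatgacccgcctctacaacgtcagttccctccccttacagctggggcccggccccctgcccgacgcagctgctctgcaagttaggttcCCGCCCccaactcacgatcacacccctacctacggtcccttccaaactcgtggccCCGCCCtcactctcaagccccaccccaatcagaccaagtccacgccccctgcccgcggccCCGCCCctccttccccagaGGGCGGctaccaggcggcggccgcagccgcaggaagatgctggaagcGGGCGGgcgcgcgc
The RefSeq table held windows for 39 of the 48 members, 48 windows in all, some genes having more than 1 start site. Neighbouring GC boxes can overlap by 1 base, as in the Rab22a window. An E-box lay in 6 of the 48 windows (12.5%), against 7.15% of the 32851 windows of the table. The 6 windows belong to Rab20 (-46 from the start), Rab21 (-30), Rab23 (-218), Rab5a (-235 and -95), Rab24 (2) and Rab27a (-246). Of these genes, Rab20, Rab21, Rab23 and Rab5a were called higher in mature cells, Rab24 was called lower and Rab27a was not called. A GC box lay in 34 of the 48 windows (70.8%) against 35.7% of all windows, in 15 of the 22 windows of members called higher (68.2%) and in 8 of the 13 windows of members called lower (61.5%). The Rab9 window shown above has neither motif. The cAMP response element TGACGTCA lay in 1 of the 48 windows, that of Rab5a (1.79% of all windows), and the NF-kB consensus in 1, that of Rab28 (4.51% of all windows). These matches describe letters and show no binding.

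Mature cDC1s had higher RNA levels of 25 Rab genes and lower levels of 10. With the mean of both genotypes compared by edgeR's quasi-likelihood test, adjusted by Benjamini and Hochberg over all 11978 genes and called at an adjusted p under 0.05, 25 of the 48 members were higher in mature cells and 10 were lower, while 13 were not called. Of all genes tested, 33.4% were called higher and 34.2% lower. An increase over 2-fold was called for 10 members, Rab26, Rab20, Rab34, Rab9, Rab21, Rab8b, Rab23, Rab12, Rab22a and Rab39b, against a background of 12.3% of all genes. Among these, Rab26, Rab34 and Rab39b passed the filter on low counts only through their mature libraries, the stage where they were higher. No member was lower by over 2-fold, the lowest log2 fold change being -0.90. Since 1.45% of all genes were, this says nothing particular about 48 genes. In 19 members every mature library was above every immature one (18.0% of all genes), and in 3, Rab19, Rab1b and Rab7b, every mature library was below (15.0%). The median log2 fold change was 0.23 over the 48 members and -0.0095 over all genes. The shares of members called higher were above this background and those called lower were below it, a difference that was not tested. Without the mature library of each genotype richest in B cell markers 25 members were higher and 9 lower (3705 and 3798 of all genes). Without those richest in macrophage markers the counts were 24 and 9 (3739 and 3822 of all genes). With replicates 2 and 4 of mature Xbp1flIre1fl left out, the pair with the least Ccr7 in its group, they were 25 and 10 (4175 and 4275 of all genes).

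The split of calls depended on how libraries were scaled, and the 10 increases over 2-fold kept their direction and call under TMM, RLE, upper quartile and library total scaling. TMM scaling, used for the main values, left the median of all genes at -0.0095. Upper quartile scaling moved it to -0.13 and gave 21 members higher and 15 lower, where 3213 of the 11978 genes tested were higher and 5237 lower. Scaling by library totals alone moved it to -0.23 and gave 17 higher and 16 lower, where 22.7% of all genes were higher and 50.9% lower. The smaller increases of Rab1, Rab10, Rab11b, Rab29, Rab2b, Rab35, Rab6a and Rab8a lost their calls under library totals, Rab1 turning to -0.097, whereas all 10 decreases stayed called under both scalings. Rab4b, Rab5c, Rab11a, Rab27a and Rab33b, not called with TMM, were called lower under both scalings, and Rab7 under library totals only. Near the 2-fold line, Rab22a and Rab39b were at 0.96 and 0.94 under library totals, and Rab39 was at -1.02 under upper quartile scaling and -1.12 under library totals. Rab39 was also past that line, at -1.11, with the low-Ccr7 pair left out. In the same way the 48 genes together took 0.639 to 0.679% of all counts in immature and 0.599 to 0.634% in mature libraries, but 5752 to 6272 CPM in immature and 6242 to 6899 CPM in mature libraries after TMM scaling.

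**Figure D1:**
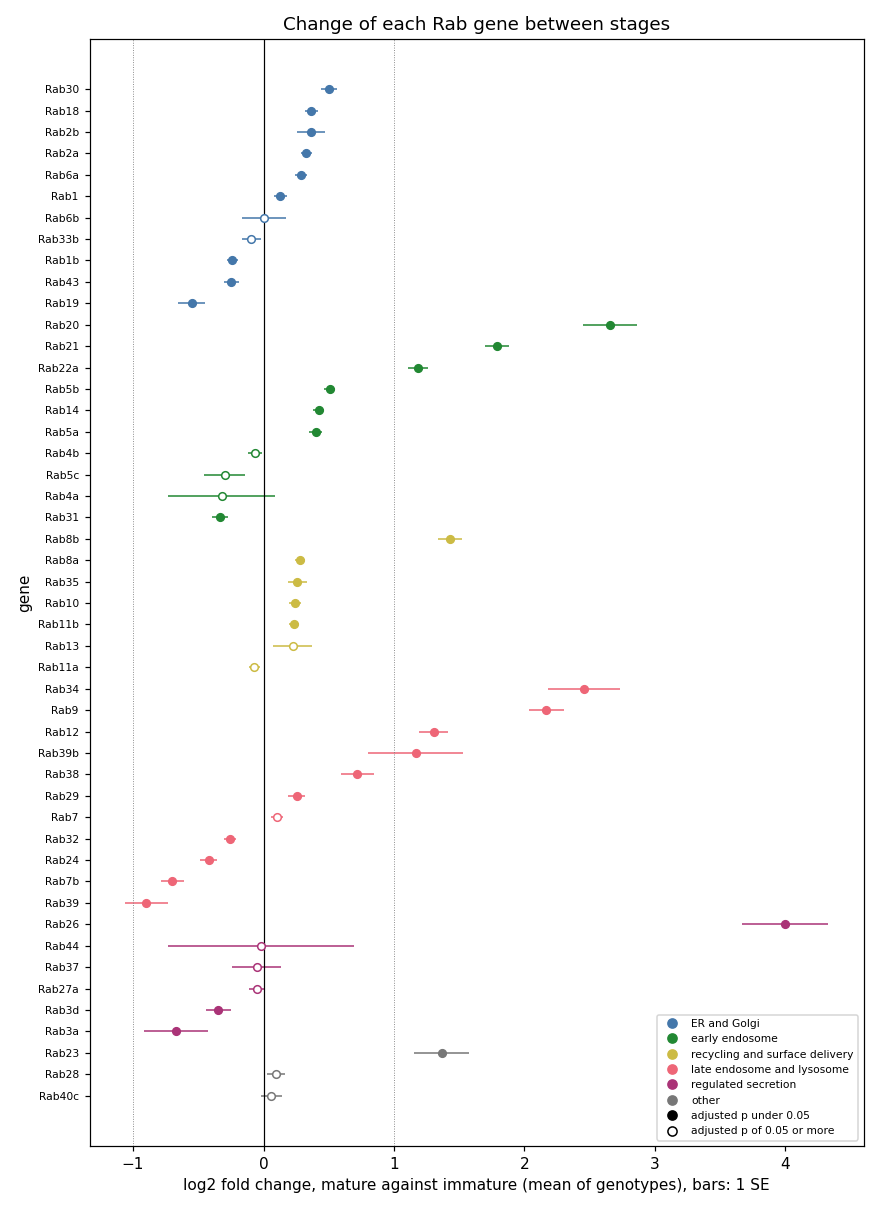
Log2 fold change of each of the 48 Rab genes between mature and immature cDC1s as the mean of both genotypes (x axis, bars 1 SE), coloured by class, with filled points for an adjusted p under 0.05. The right side holds 10 called genes beyond a log2 fold change of 1, from Rab39b at 1.17 to Rab26 at 4.00, and the left side ends with Rab39 at -0.90.

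The early endosome class, which receives and sorts newly ingested material, had 6 of 10 members higher, 1 lower and 3 not called (against 33.4% of all genes higher and 34.2% lower), with a median log2 fold change of 0.41. Rab20 (chr8:11453518-11478710, - strand, in mm10 as annotated by GENCODE, as for every gene position given here) is a GTPase of early endosomes and maturing phagosomes. Immature libraries 1 to 4 held 4.71, 2.04, 4.97 and 3.50 CPM in Xbp1fl and 4.72, 4.54, 3.51 and 3.18 CPM in Xbp1flIre1fl mice. Mature libraries 1 to 4 held 24.1, 20.0, 26.2 and 25.0 CPM in Xbp1fl and 33.8, 21.2, 33.3 and 13.1 CPM in Xbp1flIre1fl mice. Every mature library was above every immature one, the lowest mature value being that of Xbp1flIre1fl replicate 4, and the level rose 6.30-fold (log2 fold change 2.66, SE 0.21, adjusted p = 1.15e-08). Of its exonic bases, 25.6% overlap the opposite-strand gene E230013L22Rik. Since the labels do not say whether counting used strand, part of this signal could not be assigned to Rab20 with certainty. The log2 fold change was 2.55 without the mature libraries richest in B cell markers and 2.57 without those richest in macrophage markers.

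Rab21 (chr10:115287084-115315594, - strand), known for the endosomal traffic of integrins, had no overlap with another gene. Its immature libraries 1 to 4 held 65.0, 64.8, 66.3 and 74.8 CPM in Xbp1fl and 80.7, 76.7, 69.0 and 61.1 CPM in Xbp1flIre1fl mice. In mature cells the values were 227, 221, 274 and 264 CPM in Xbp1fl and 279, 208, 276 and 179 CPM in Xbp1flIre1fl mice. The stages did not overlap, and Rab21 rose 3.45-fold (log2 fold change 1.79, SE 0.092, adjusted p = 5.41e-11), the smallest adjusted p of the 48 members. As for Rab20, the lower mature values of the Xbp1flIre1fl genotype came from replicates 2 and 4, which were also its mature libraries with the least Ccr7, the chemokine receptor that marks maturation. Without those libraries the log2 fold change was 1.90 for Rab21 and 2.85 for Rab20.

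Rab22a (chr2:173659760-173707343, + strand), which acts in endosomal recycling of MHC class I molecules, had 32.1 to 37.1 CPM (median 34.8) in immature and 64.6 to 93.3 CPM (median 79.7) in mature libraries. It rose 2.27-fold without overlap of the stages (log2 fold change 1.18, SE 0.079, adjusted p = 5.87e-10). Group means were 34.5 ± 2.22 CPM in immature and 80.6 ± 10.9 CPM in mature cells of Xbp1fl mice, and 34.5 ± 1.36 and 76.3 ± 13.4 CPM in those of Xbp1flIre1fl mice (SD, n = 4 each). Its close relative Rab31, which carries cargo between the trans-Golgi network and endosomes, moved the other way. Rab31 had 63.4 to 80.0 CPM (median 72.1) in immature and 46.2 to 64.6 CPM (median 58.6) in mature libraries, ranges that overlap at their ends, and fell 1.26-fold (log2 fold change -0.33, SE 0.060, adjusted p = 8.73e-05). The means of Rab31 were 75.9 ± 4.57 CPM in immature and 59.3 ± 4.15 CPM in mature cells of Xbp1fl mice, and 69.7 ± 4.25 and 56.1 ± 6.86 CPM in those of Xbp1flIre1fl mice (SD, n = 4 each). As a share of the summed CPM per kilobase of exon of this pair, Rab22a made up 18.1 to 22.6% (median 19.9%) in immature and 35.6 to 50.2% (median 40.9%) in mature libraries.

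The Rab5 genes, whose products drive fusion of early endosomes, did not move as one. Rab5b rose from 57.5 ± 2.19 CPM to 81.8 ± 4.17 CPM (log2 fold change 0.51, SE 0.042, adjusted p = 1.05e-08) and Rab5a from 105 ± 3.94 CPM to 138 ± 11.2 CPM (SD, n = 8 each; log2 fold change 0.40, SE 0.049, adjusted p = 1.34e-06), both without overlap of the stages. Rab5c had 22.5 to 45.4 CPM (median 43.4) in immature and 20.2 to 41.9 CPM (median 34.4) in mature libraries and was not called (log2 fold change -0.30, SE 0.16, adjusted p = 0.106). Replicate 1 of immature Xbp1fl held 22.5 CPM of Rab5c against 44.3 to 45.4 CPM in the other replicates of its group, and without it Rab5c was called lower (log2 fold change -0.40, adjusted p = 0.0104). Replicate 4 of mature Xbp1fl was also low, at 20.2 CPM against 35.9 to 41.9 CPM in the others of its group. Without that library the log2 fold change was -0.21 and Rab5c was not called. Rab14, which links early endosomes with the Golgi, rose from 114 ± 4.22 CPM to 152 ± 8.11 CPM (log2 fold change 0.42). Rab4b, a gene of fast recycling and the most abundant member of the class per kilobase, was not called, with 93.5 ± 6.32 CPM in immature and 91.5 ± 6.73 CPM in mature cells of Xbp1fl mice, and 90.4 ± 3.74 and 84.4 ± 7.05 CPM in those of Xbp1flIre1fl mice (SD, n = 4 each). Its log2 fold change was -0.065 with TMM, -0.19 with upper quartile scaling (adjusted p = 0.00445) and -0.29 with library totals (0.000148). Its median was 76.3 CPM per kilobase in immature and 72.5 in mature libraries, but 85.2% of its exonic bases overlap the same-strand readthrough gene model Gm21983. Rab4a was rare, at 0.286 to 1.02 CPM (median 0.620) in immature and 0.0687 to 1.18 CPM (median 0.437) in mature libraries, and was not called.

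The recycling and surface class, which returns cargo to the plasma membrane, had 5 of 7 members higher (33.4% of all genes), while Rab13 and Rab11a were not called, and of the 5 Rab8b alone kept its call under library totals. Rab8b (chr9:66843664-66919687, - strand), which directs exocytic carriers to the cell surface, rose the most. It had 314 to 396 CPM (median 347) in immature and 719 to 1169 CPM (median 950.4) in mature libraries, with no overlap, and rose 2.69-fold (log2 fold change 1.43, SE 0.093, adjusted p = 5.48e-10). Group means were 347 ± 38.0 CPM in immature and 926 ± 93.8 CPM in mature cells of Xbp1fl mice, and 346 ± 10.6 and 937 ± 221 CPM in those of Xbp1flIre1fl mice (SD, n = 4 each). Per kilobase, Rab8b went from rank 9 among the 48 genes in immature cells (median 73.4 CPM per kilobase) to rank 2 in mature cells (201). That place was rank 3 when the longest transcript served as the length. Without the mature libraries richest in B cell markers its log2 fold change was 1.34, and 1.37 without those richest in macrophage markers.

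The paralogue Rab8a rose less, from 269 ± 10.8 CPM to 326 ± 13.8 CPM (SD, n = 8 each; log2 fold change 0.28). Rab8b held 53.0 to 57.1% (median 55.7%) of the summed Rab8 level per kilobase in immature and 69.0 to 76.5% (median 73.4%) in mature libraries, ranges that do not overlap. Rab10, which acts in polarised exocytosis and was the most abundant gene of the class per kilobase in immature cells, rose from 436 ± 21.6 CPM to 515 ± 22.7 CPM (log2 fold change 0.24, SE 0.044, adjusted p = 0.000109). Group means of Rab10 were 444 ± 25.8 CPM in immature and 518 ± 26.3 CPM in mature cells of Xbp1fl mice, and 428 ± 16.1 and 512 ± 22.0 CPM in those of Xbp1flIre1fl mice (SD, n = 4 each). Rab11b, of the recycling endosome, rose from 217 ± 9.78 CPM to 255 ± 9.79 CPM (log2 fold change 0.23), and Rab11a was not called, at 203 ± 7.42 CPM and 194 ± 10.4 CPM. Rab13 was at 2.71 ± 0.368 CPM in immature and 3.15 ± 0.734 CPM in mature libraries. Rab35, of the fast recycling route, rose by 0.26 on the log2 scale with overlapping stages. With library totals as the scale, the log2 fold changes of Rab8a, Rab10, Rab11b and Rab35 were 0.0094 to 0.055 and not called, that of Rab11a was -0.30 and called lower (adjusted p = 8.29e-06), as with upper quartile scaling (-0.19, 0.000609), and that of Rab8b was 1.20.

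**Figure D2:**
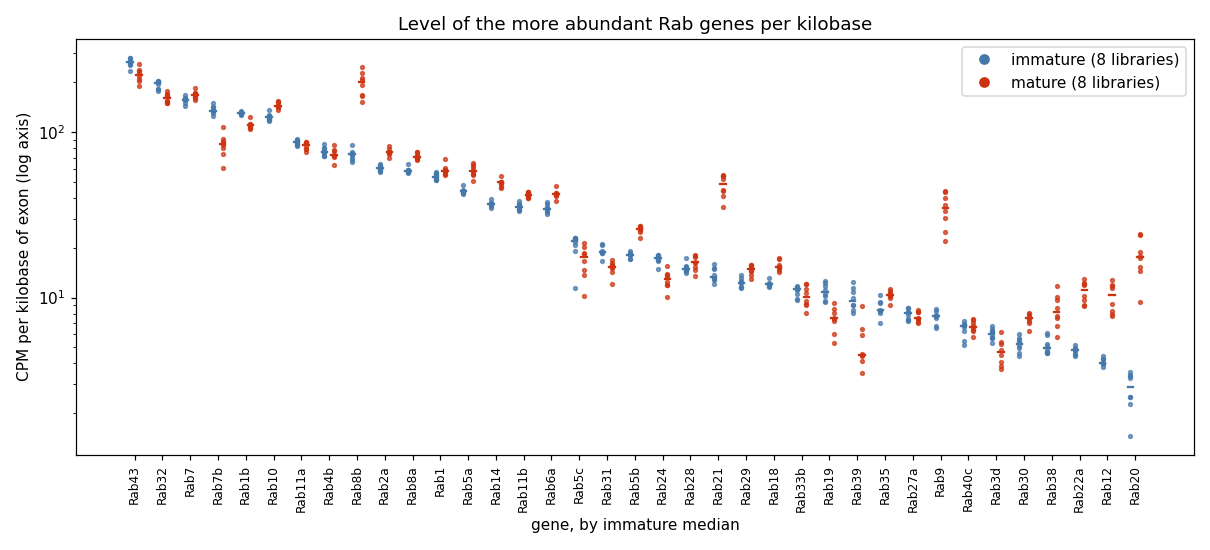
Levels of the 37 Rab genes with a median of at least 5 CPM per kilobase of exon in either stage (log axis), with 1 point per library, 8 immature in blue and 8 mature in red, and lines at the medians. Rab43 stands highest in both stages, and Rab8b moves from a median of 73.4 to 201.

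The late endosome and lysosome class had 6 of 11 members higher, 4 lower and 1, Rab7, not called (against 33.4% of all genes higher and 34.2% lower). Rab9 (chrX:166457253-166479867, - strand), which returns mannose 6-phosphate receptors from late endosomes to the trans-Golgi network, was at 11.3, 10.8, 12.3 and 11.9 CPM in immature Xbp1fl libraries 1 to 4 and at 9.50, 11.2, 9.78 and 11.2 CPM in immature Xbp1flIre1fl libraries 1 to 4. The mature libraries held 43.6, 48.1, 63.0 and 52.5 CPM in Xbp1fl and 57.7, 31.8, 63.5 and 36.3 CPM in Xbp1flIre1fl mice. The lowest mature library was more than 2-fold above the highest immature one, and Rab9 rose 4.49-fold (log2 fold change 2.17, SE 0.13, adjusted p = 5.52e-10). Without the mature libraries richest in B cell markers its log2 fold change was 2.03. Rab12 (chr17:66494512-66519729, - strand), which sends transferrin receptor to lysosomes, had 7.83 to 9.14 CPM (median 8.36) in immature and 16.05 to 26.3 CPM (median 21.4) in mature libraries. Its stages did not overlap and its level rose 2.47-fold (log2 fold change 1.31, SE 0.11, adjusted p = 1.09e-08). Group means of Rab12 were 8.22 ± 0.264 CPM in immature and 21.0 ± 4.17 CPM in mature cells of Xbp1fl mice, and 8.73 ± 0.377 and 20.9 ± 4.83 CPM in those of Xbp1flIre1fl mice (SD, n = 4 each).

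The other increases over 2-fold in this class, those of Rab34 and Rab39b, were of rare transcripts. Both genes passed the filter on low counts only through their mature libraries. Their place in the test thus rested on the stage where they were higher. Rab34 (chr11:78188430-78192193, + strand), which positions lysosomes and acts in building cilia, had 0.248 to 0.567 CPM (median 0.384) in immature and 1.23 to 4.09 CPM (median 2.14) in mature libraries, or 56 counts over all 8 immature and 252 over all 8 mature libraries. It rose 5.48-fold without overlap (log2 fold change 2.46, SE 0.27, adjusted p = 4.03e-07), and group means were 0.453 ± 0.110 CPM in immature and 2.20 ± 0.315 CPM in mature cells of Xbp1fl mice, and 0.344 ± 0.0675 and 2.22 ± 1.33 CPM in those of Xbp1flIre1fl mice (SD, n = 4 each). Rab39b (chrX:75572046-75578231, - strand), best known from neurons, was rarer still at 55 and 96 counts in all, with 0.113 to 0.700 CPM (median 0.311) in immature and 0.409 to 1.47 CPM (median 0.762) in mature libraries. It was called higher in overlapping stages (log2 fold change 1.17, SE 0.36, adjusted p = 0.00880), and it lost that call when tested against a 1.5-fold change. Within Xbp1fl mice it was not called (log2 fold change 0.65, adjusted p = 0.276), and within Xbp1flIre1fl mice it was (1.69, 0.0133), while the difference between genotypes was 1.04 with an SE of 0.73 (edgeR adjusted p = 1.00). Its means were 0.520 ± 0.273 CPM in immature and 0.818 ± 0.375 CPM in mature cells of Xbp1fl mice, and 0.258 ± 0.0660 and 0.862 ± 0.458 CPM in those of Xbp1flIre1fl mice (SD, n = 4 each). Opposite-strand gene Gm15063 overlaps 18.6% of its exonic bases.

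Rab39 (chr9:53684110-53706232, - strand), the relative of Rab39b known from phagosomes and lysosomes, had the largest decrease of the 48 genes. It had 24.1 to 37.0 CPM (median 28.3) in immature and 10.4 to 26.3 CPM (median 13.4) in mature libraries and fell 1.86-fold (log2 fold change -0.90, SE 0.17, adjusted p = 0.000162). The stages overlapped where mature Xbp1flIre1fl replicate 4 held 26.3 CPM, against 10.4 to 13.3 CPM in the other replicates of its group. Group means were 30.7 ± 3.09 CPM in immature and 15.7 ± 3.28 CPM in mature cells of Xbp1fl mice, and 28.3 ± 5.92 and 15.8 ± 7.11 CPM in those of Xbp1flIre1fl mice (SD, n = 4 each). Within the Rab39 pair, Rab39b made up 0.334 to 2.00% (median 0.908%) of the summed level per kilobase in immature and 2.05 to 10.9% (median 4.57%) in mature libraries.

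Rab7b (chr1:131688695-131715439, + strand), which acts between late endosomes and the trans-Golgi network and in the traffic of Toll-like receptors, had 568 to 677 CPM (median 613) in immature and 275 to 490.1 CPM (median 385) in mature libraries. Every mature library was below every immature one, and Rab7b fell 1.62-fold (log2 fold change -0.70, SE 0.086, adjusted p = 1.33e-06). Rab7, the central GTPase of fusion with lysosomes, had 376 to 441 CPM (median 411) in immature and 407 to 484 CPM (median 441) in mature libraries and was not called (log2 fold change 0.10, SE 0.044, adjusted p = 0.0513). Its group means were 399.9 ± 18.8 CPM in immature and 442 ± 14.0 CPM in mature cells of Xbp1fl mice, and 422 ± 14.2 and 439 ± 32.6 CPM in those of Xbp1flIre1fl mice (SD, n = 4 each). That result lay at the threshold. With the replicate number as a block Rab7 was called higher (adjusted p = 0.0445), and so it was without Xbp1fl mature replicate 3 (0.0461), Xbp1fl immature replicate 1 (0.0444), Xbp1flIre1fl mature replicate 3 (0.0468) or Xbp1flIre1fl mature replicate 4 (0.0245), and also with RLE size factors, DESeq2, limma voom, the deposited log2 values, the genes of the deposited log2 table, no robust step and without the libraries richest in B cell markers (0.0174 to 0.0480). With library totals as the scale it was called lower (log2 fold change -0.12, adjusted p = 0.0222). Rab7b held 44.4 to 48.3% (median 46.1%) of the summed Rab7 level per kilobase in immature and 27.0 to 36.8% (median 33.3%) in mature libraries. Of the 50-base runs of Rab7, 16.2% also occur in other genes, among them its pseudogene Rab7-ps1. Over 5% of such runs were shared in 14 of the 48 members. Among them were Rab33b (20.8%), Rab11b (14.0%), Rab5b (13.0%), Rab9 (7.87%) and Rab8b (5.66%).

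Rab32 and Rab38, which serve lysosome-related organelles, were called in opposite directions. Rab32, the most abundant gene of the class per kilobase in immature cells (median 199 CPM per kilobase), had 381 to 440.2 CPM (median 427) in immature and 324 to 384 CPM (median 344) in mature libraries (log2 fold change -0.26, SE 0.044, adjusted p = 4.92e-05). Its means were 435 ± 4.99 CPM in immature and 359 ± 22.1 CPM in mature cells of Xbp1fl mice, and 397 ± 18.4 and 336 ± 20.0 CPM in those of Xbp1flIre1fl mice (SD, n = 4 each). Rab38 had 7.26 to 9.65 CPM (median 7.83) in immature and 9.06 to 18.5 CPM (median 12.9) in mature libraries (log2 fold change 0.72, SE 0.13, adjusted p = 8.90e-05), with means of 8.08 ± 1.11 CPM in immature and 13.9 ± 2.37 CPM in mature cells of Xbp1fl mice, and 8.16 ± 0.870 and 12.9 ± 3.99 CPM in those of Xbp1flIre1fl mice (SD, n = 4 each). The stages overlapped at their ends for both genes. Rab38 remained a small part of the pair, at 2.21 to 3.14% (median 2.51%) per kilobase in immature and 3.61 to 7.23% (median 4.91%) in mature libraries. Rab24, known from autophagy, fell from 20.0 ± 1.20 CPM to 15.0 ± 1.92 CPM (SD, n = 8 each; log2 fold change -0.42), with 66.4% of its exonic bases overlapped by opposite-strand Prelid1. Rab29, a partner of the kinase LRRK2, rose from 16.7 ± 1.04 CPM to 19.9 ± 1.43 CPM (log2 fold change 0.25).

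**Figure D3:**
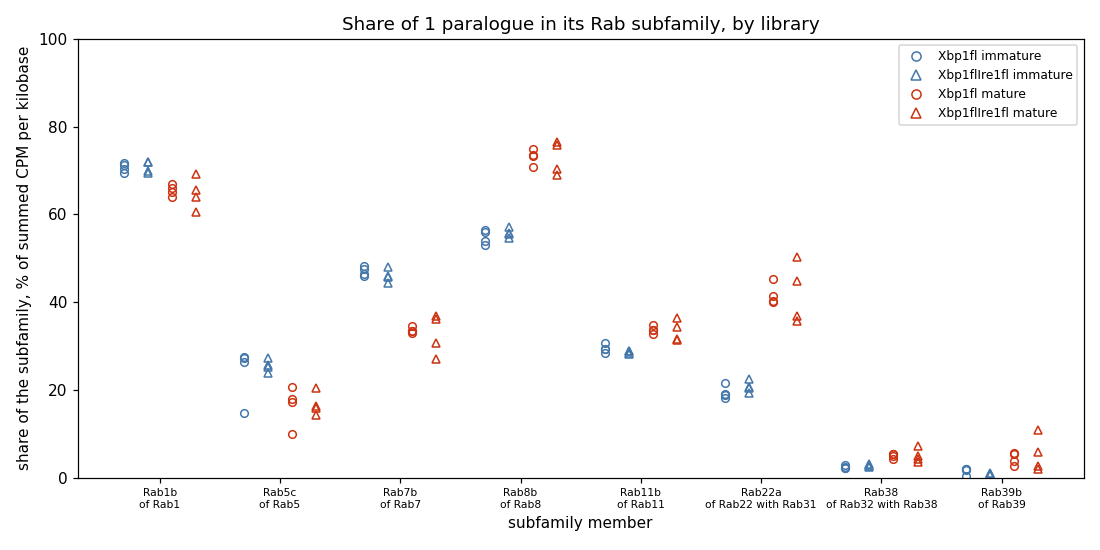
Share of 1 paralogue in the summed CPM per kilobase of its Rab subfamily, in percent, with 1 point per library (circles Xbp1fl, triangles Xbp1flIre1fl, blue immature, red mature). Mature and immature libraries part without overlap for Rab8b, Rab7b, Rab22a, Rab1b, Rab11b, Rab38 and Rab39b, while those of Rab5c overlap.

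The early secretory class, from endoplasmic reticulum to Golgi, had 6 of 11 members higher, 3 lower and 2 not called, all within 2-fold (against 33.4% of all genes higher and 34.2% lower). Rab43 (chr6:87788853-87812164, - strand) had the highest level per kilobase of all 48 genes in both stages, with medians of 264 and 223 CPM per kilobase. It had 1269.9 to 1519.6 CPM (median 1423) in immature and 1029 to 1391 CPM (median 1201) in mature libraries, overlapping ranges, and fell 1.19-fold (log2 fold change -0.25, SE 0.058, adjusted p = 0.00117). Group means were 1458 ± 70.3 CPM in immature and 1234 ± 45.9 CPM in mature cells of Xbp1fl mice, and 1386 ± 80.9 and 1163 ± 158 CPM in those of Xbp1flIre1fl mice (SD, n = 4 each). This level is uncertain as a measure of Rab43 alone, since 77.3% of its exonic bases overlap the same-strand gene model Gm45140 and 90.4% of its 50-base runs are shared with it. The ER-to-Golgi pair Rab1 and Rab1b was called in opposite directions. Rab1b had 254 to 271 CPM (median 261) in immature and 209 to 248 CPM (median 221) in mature libraries and fell without overlap (log2 fold change -0.24, SE 0.041, adjusted p = 4.88e-05), with means of 260.3 ± 5.04 CPM in immature and 219 ± 7.32 CPM in mature cells of Xbp1fl mice, and 264 ± 5.14 and 225 ± 16.4 CPM in those of Xbp1flIre1fl mice (SD, n = 4 each).

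Rab1 had 145 to 162 CPM (median 153) in immature and 155 to 195 CPM (median 166) in mature libraries, overlapping ranges (log2 fold change 0.13, SE 0.048, adjusted p = 0.0236), with means of 152 ± 7.15 CPM in immature and 163 ± 4.26 CPM in mature cells of Xbp1fl mice, and 154 ± 7.65 and 172 ± 16.7 CPM in those of Xbp1flIre1fl mice (SD, n = 4 each). It lost its call without Xbp1fl immature replicate 2 (adjusted p = 0.0558) or 3 (0.0553), Xbp1flIre1fl immature replicate 4 (0.0557) or Xbp1flIre1fl mature replicate 3 (0.0528), and without the libraries richest in B cell (0.0829) or macrophage markers (0.0649). The call was also lost with upper quartile scaling (log2 fold change 0.0078, adjusted p = 0.884) and without the filter on low counts (0.11, 0.0716), and Rab1 was called within neither Xbp1fl (0.232) nor Xbp1flIre1fl (0.0534). Rab1b made up 69.5 to 71.9% (median 70.8%) of the pair per kilobase in immature and 60.5 to 69.3% (median 65.3%) in mature libraries. Rab19 fell from 17.2 ± 1.85 CPM to 11.7 ± 2.04 CPM (SD, n = 8 each; log2 fold change -0.55, SE 0.10, adjusted p = 0.000144), with no overlap. The other called members of the class rose, Rab30 by 0.50, Rab18 by 0.37, Rab2b by 0.36, Rab2a by 0.33 and Rab6a by 0.29 on the log2 scale. Rab2b shares 77.6% and Rab6a 20.6% of exonic bases with genes on the opposite strand. Rab33b, at 38.1 ± 2.85 CPM in immature and 35.7 ± 5.19 CPM in mature libraries, and Rab6b, at 2.75 ± 0.579 CPM and 2.78 ± 0.612 CPM, were not called. Rab33b was called lower with upper quartile scaling (log2 fold change -0.21, adjusted p = 0.0218), with library totals (-0.32, 0.00293) and without Xbp1flIre1fl mature replicate 4 (-0.16, 0.0367), against -0.093 with TMM and all libraries.

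The regulated secretion class, whose products act on granules and secretory lysosomes, had 1 of 6 members higher, 2 lower and 3 not called (against 33.4% of all genes higher and 34.2% lower). Rab26 (chr17:24527241-24534210, - strand), a GTPase of secretory granules, had the largest fold change of the 48 genes from a very low start. Immature libraries held 1 to 8 counts each and 31 in all, or 0.0582 to 0.454 CPM (median 0.219). Mature libraries held 26 to 90 counts each and 425 in all, or 1.77 to 6.18 CPM (median 3.85). The stages did not overlap, and Rab26 rose (log2 fold change 4.00, SE 0.33, adjusted p = 8.85e-09). Its immature libraries alone would not have passed the filter on low counts, so its place in the test rested on the mature libraries. Group means were 0.210 ± 0.175 CPM in immature and 4.35 ± 1.37 CPM in mature cells of Xbp1fl mice, and 0.229 ± 0.0755 and 3.06 ± 1.40 CPM in those of Xbp1flIre1fl mice (SD, n = 4 each). Of its exonic bases, 10.7% overlap the same-strand gene Traf7. In mature cells Rab26 reached a median of 1.55 CPM per kilobase, below the 7.50 of Rab27a, which releases secretory lysosomes and was the most abundant gene of the class.

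Rab27a was not called, with means of 25.6 ± 1.66 CPM in immature and 23.9 ± 1.53 CPM in mature cells of Xbp1fl mice, and 24.8 ± 2.28 and 24.6 ± 1.97 CPM in those of Xbp1flIre1fl mice (SD, n = 4 each). Its log2 fold change of -0.053 became -0.17 with upper quartile scaling (adjusted p = 0.0220) and -0.28 with library totals (0.00219), lower in both. The granule genes Rab3d and Rab3a were called lower. Rab3d fell from 23.8 ± 1.83 CPM to 18.7 ± 3.34 CPM (SD, n = 8 each; log2 fold change -0.35) and Rab3a from 2.28 ± 0.690 CPM to 1.40 ± 0.559 CPM (log2 fold change -0.67, SE 0.25, adjusted p = 0.0221), both with overlapping stages. Rab3a lost its call without Xbp1flIre1fl immature replicate 4 (adjusted p = 0.0567) and without the mature libraries richest in B cell (0.0825) or macrophage markers (0.0698). Rab37, at 4.77 ± 1.77 CPM in immature and 4.56 ± 0.965 CPM in mature libraries, and Rab44, at 0.533 ± 0.460 CPM and 0.455 ± 0.385 CPM, were not called.

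Among the 3 members placed in no compartment class, Rab23 (chr1:33719887-33742564, + strand), an inhibitor of Hedgehog signalling, was higher and Rab28 and Rab40c were not called. Rab23 had the largest difference between genotypes in its stage change among members of at least 5 CPM in a stage. Immature libraries 1 to 4 held 3.40, 2.62, 2.34 and 1.88 CPM in Xbp1fl and 2.11, 1.57, 3.11 and 2.18 CPM in Xbp1flIre1fl mice. Mature libraries 1 to 4 held 4.15, 3.80, 6.87 and 8.26 CPM in Xbp1fl and 7.68, 3.75, 7.41 and 7.63 CPM in Xbp1flIre1fl mice. The stages did not overlap, though the lowest mature library (3.75 CPM) lay close to the highest immature one (3.40 CPM), and Rab23 rose 2.58-fold (log2 fold change 1.36, SE 0.21, adjusted p = 1.54e-05). Rab28, the most abundant of the 3 genes per kilobase, had means of 25.9 ± 0.838 CPM in immature and 27.8 ± 3.05 CPM in mature cells of Xbp1fl mice, and 26.6 ± 2.44 and 28.5 ± 2.94 CPM in those of Xbp1flIre1fl mice (SD, n = 4 each). Rab40c, a Rab with a SOCS box, was at 16.5 ± 1.90 CPM in immature and 17.2 ± 1.40 CPM in mature libraries (SD, n = 8 each).

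**Figure D4:**
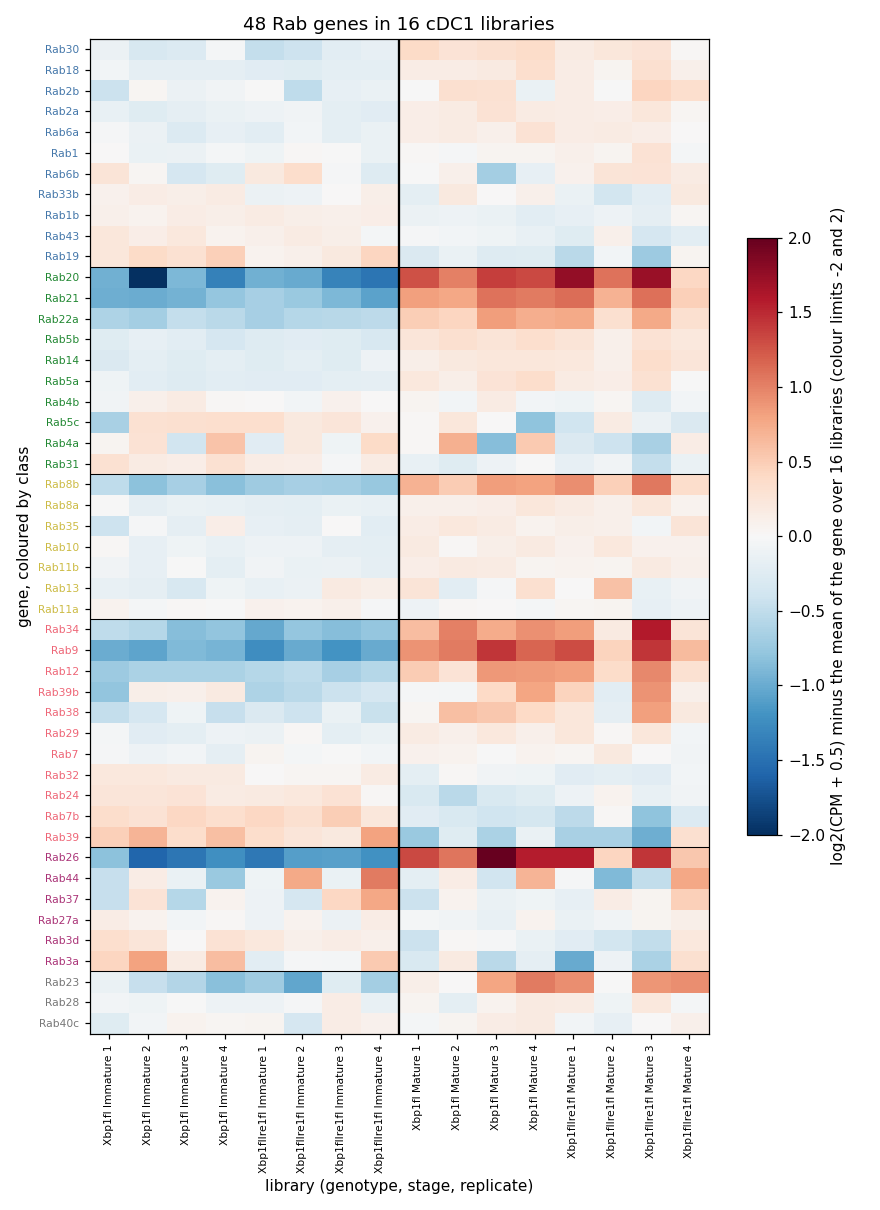
Heat map of the 48 Rab genes (rows, coloured by class) in the 16 libraries (columns, by genotype, stage and replicate), each cell giving log2(CPM + 0.5) minus the gene's mean over the 16 libraries, with colour limits of -2 and 2. Rab26, Rab20, Rab34, Rab9 and Rab21 change most between stages, and the 3 genes Rab19, Rab1b and Rab7b are lower in all 8 mature than in all 8 immature libraries.

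The division of the Rab transcript pool is described here as the share of the summed CPM per kilobase of all 48 genes and without a test. Recycling and surface genes took 21.0 to 22.6% in immature and 26.5 to 30.2% in mature libraries, with medians of 21.6 and 28.1%. Most of that difference was Rab8b, whose own median share was 4.07% in immature and 10.1% in mature libraries. Early endosome genes took 12.2 to 13.6% and 15.2 to 16.8%. Early secretory genes took 31.9 to 33.3% and 26.9 to 29.8%, and late endosome and lysosome genes 29.6 to 30.8% and 24.3 to 26.6%, although 6 of the 11 members of each were called higher. A few abundant genes made up much of these differences. Median shares were 14.8 and 11.3% for Rab43, whose reads are mostly not separable from Gm45140, and 7.25 and 5.55% for Rab1b. They were 10.9 and 8.05% for Rab32 and 7.52 and 4.29% for Rab7b. The ranges of the 8 immature and 8 mature libraries did not overlap in any of these 4 classes. Regulated secretion genes took 0.819 to 1.10% and 0.751 to 1.03%. These shares do not depend on how libraries were scaled.

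No Rab gene was called different between the genotypes, in its level or in its stage change. In Xbp1fl mice 22 members were called higher and 10 lower in mature cells, against 28.4% and 28.3% of all genes. In Xbp1flIre1fl mice 23 were higher and 9 lower, against 27.4% and 26.1% of all genes. The test of the difference between the genotypes' stage changes called 0 of 48 members and 0% of all genes, and DESeq2 and limma voom also called 0 members. At an unadjusted edgeR p under 0.05 stood 1 member (2.08% of members), against 2.75% of all genes. That member was Rab24, named after its values were seen, which changed by -0.59 in Xbp1fl and -0.25 in Xbp1flIre1fl mice on the log2 scale (difference 0.35, SE 0.13, edgeR adjusted p = 1.00). For Rab23 the difference was 0.39 with an SE of 0.42 (edgeR adjusted p = 1.00). Between the genotypes directly, edgeR called 0 members in immature cells (0.134% of all genes) and 0 in mature cells (0.142%), and DESeq2 and limma voom called 0 as well. At an unadjusted edgeR p under 0.05 stood 1 member in each, Rab32 in immature and Rab24 in mature cells. Over all genes 4.78% in immature and 6.29% in mature cells did so. A missed threshold does not show that the genotypes are alike. The tests of stage change also left out the pairing of same-numbered libraries of a genotype.

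**Figure D5:**
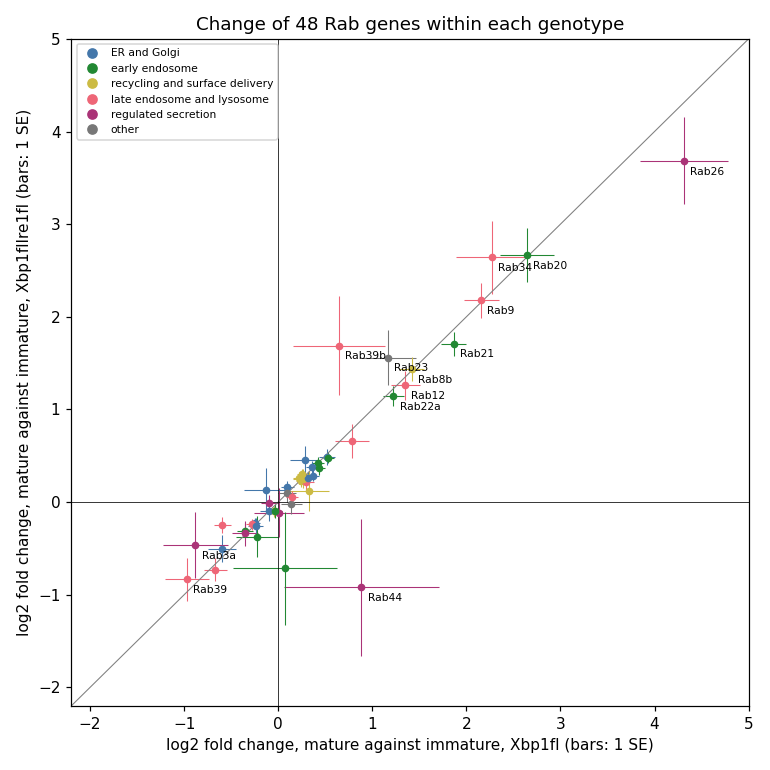
Log2 fold change of mature against immature cDC1s in Xbp1fl mice (x axis) and in Xbp1flIre1fl mice (y axis) for the 48 Rab genes, with bars of 1 SE, the line of equal change, and names for larger changes. The genes with the largest changes in the mean of both genotypes, Rab26, Rab20, Rab34, Rab9, Rab21 and Rab8b, lie in the upper right. Their place there follows in part from that choice. The 2 axes share no library but come from the same fit.

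Genes for the proteins that switch and use Rabs were called in both directions, and their levels are given from immature to mature cells as mean ± SD (n = 8 each). Of 47 tested GEF genes 23 were higher and 11 lower in mature cells (median log2 fold change 0.15). Ric1, which with Rgp1 activates Rab6, went from 10.6 ± 0.835 to 59.2 ± 13.4 CPM (log2 fold change 2.48, SE 0.13, adjusted p = 1.12e-10). St5, the DENN-domain protein Dennd2b that activates Rab13, went from 0.590 ± 0.224 to 6.31 ± 1.96 CPM (log2 fold change 3.42, SE 0.24, adjusted p = 1.36e-09). Ankrd27, also called VARP, which activates Rab21 and binds Rab32 and Rab38, went from 54.6 ± 2.91 to 99.0 ± 10.2 CPM (log2 fold change 0.86, SE 0.062, adjusted p = 1.67e-09). In all 3 genes every mature library was above every immature one. Of 35 GAP genes 18 were higher and 7 lower (median 0.21). Tbc1d15, a GAP for Rab7, went from 87.9 ± 6.84 to 234 ± 38.4 CPM (log2 fold change 1.41, SE 0.084, adjusted p = 1.62e-10). The TBC-domain genes Tbc1d8 and Rabgap1l went from 448 ± 23.2 to 928 ± 117 CPM (log2 fold change 1.05, SE 0.070, adjusted p = 6.03e-10) and from 55.5 ± 3.56 to 173 ± 34.4 CPM (log2 fold change 1.64, SE 0.10, adjusted p = 6.94e-10), and the stages did not overlap for any of the 3 GAP genes.

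A mixed list held genes for GDIs, prenylation and Rab phosphorylation, and the membrane protein genes Yipf1 to Yipf6, Yif1a, Yif1b, Rabac1 and Arl6ip5. Of its 19 genes 6 were higher and 8 lower (median 0.028). Lrrk1, a kinase of Rab7, went from 184 ± 8.31 to 345 ± 47.5 CPM (log2 fold change 0.91, SE 0.074, adjusted p = 7.18e-09), and the prenyl-binding protein gene Pde6d from 19.5 ± 0.959 to 33.2 ± 4.93 CPM (log2 fold change 0.77, SE 0.083, adjusted p = 2.85e-07). The 8 lower genes had log2 fold changes of -0.87 to -0.19. Chml, a Rab escort protein gene named after its values were seen, had the lowest of these and went from 15.9 ± 1.70 to 8.67 ± 1.66 CPM (log2 fold change -0.87, SE 0.11, adjusted p = 1.64e-06). Of 70 effector genes 29 were higher and 18 lower (median 0.11). Zfyve1, a FYVE-domain protein of the endoplasmic reticulum, went from 12.1 ± 1.20 to 44.9 ± 8.38 CPM (log2 fold change 1.89, SE 0.11, adjusted p = 1.51e-10). Mical3, a monooxygenase that binds Rab8 on exocytic carriers, went from 3.70 ± 0.719 to 48.1 ± 13.4 CPM (log2 fold change 3.70, SE 0.19, adjusted p = 1.64e-10), and the Rab14-binding kinesin gene Kif16b from 28.7 ± 3.00 to 63.7 ± 9.96 CPM (log2 fold change 1.14, SE 0.084, adjusted p = 1.86e-09). Optn, which encodes the Rab8-binding autophagy receptor optineurin, went from 1.98 ± 0.788 to 9.52 ± 2.79 CPM (log2 fold change 2.25, SE 0.24, adjusted p = 3.40e-07). These lists were read against the 33.4% of all genes called higher and 34.2% called lower, and no set test was made.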

How the data were processed

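Bulk RNA sequencing of 16 libraries of splenic cDC1s was used. The build mm10 and the tools TopHat2 2.1.0, Trimmomatic 0.35, FastQC 0.11.4, limma 3.42.2 and SAMtools 0.1.19 are listed, per the submitters' processing notes. The read counter, the annotation, the use of strand and the handling of shared reads are not given in the sources used here. The authors deposited raw counts per gene symbol (24421 genes) and log2 values for 11843 genes. Over genes, the deposited log2 values differed from log2 CPM by a constant per library with an SD of at most 0.0294, and they were used only to choose the members and as an alternative.

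The raw counts were modelled with edgeR 4.0.16 (R 4.3.3): filterByExpr (11978 genes kept), TMM factors (1.06 to 1.12 in immature and 0.886 to 1.00 in mature libraries), 1 mean per group, robust quasi-likelihood fit with 12 residual degrees of freedom, and Benjamini-Hochberg adjustment over all genes. CPM are TMM-scaled counts per 1e+06 counts. The SE was derived from the F statistic as log2 fold change over root F. The code was run on simulated counts in which few genes changed, evenly in both directions. That run does not test the scaling where most genes change, as here. Levels per kilobase use the union of protein-coding exons in the GENCODE annotation of mm10, in which all 48 members were found, Rab1 as Rab1a. Markers were compared as summed CPM of each list. Replicate pairs within groups differed by more than sampling noise (24 pairs, chi-square 5.23 to 57.1 times its degrees of freedom), so none was treated as a duplicate.

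The labels number the replicates 1 to 4 in each group. Same-numbered immature and mature libraries of 1 genotype deviated together from their group means over 9187 genes (8 of 8 correlations over 0.1, from 0.236 to 0.558). The numbers were therefore taken to pair these libraries, but the main fit left the pairs out, and no fit had pairs within a genotype. The alternative closest to this was a block on the replicate number, shared by both genotypes. The others were RLE, upper quartile and library total scaling, no filter, the genes of the deposited table, no robust step, a test against a 1.5-fold change, limma 3.58.1 (voom, and on the deposited log2 values), DESeq2 1.42.0, and leaving out single libraries or the 2 mature Xbp1flIre1fl libraries of lowest Ccr7. Leaving out the mature libraries richest in B cell or macrophage markers was added after seeing the data. The members and lists were chosen with earlier results of these data known. Genes were named by rule: members changed over 2-fold, the most abundant of each class per kilobase, subfamilies called in opposite directions, in each regulator list the 3 smallest adjusted p-values and any gene over 4-fold at 5 CPM or more. Other members named with values are examples. A result for 1 gene that the naming rule picked is not reported here.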

Additional observations from a re-analysis of the deposited data

Results flagged for a closer look

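In 9 of 192 groups of 4 libraries, 1 library stood apart from the other 3 of its group by Dixon's test, where chance gives about 5%. Replicate 1 of immature Xbp1fl did so for 4 genes. It held 22.5 CPM of Rab5c (others 44.3 to 45.4), 0.113 CPM of Rab39b (others 0.628 to 0.699), 7.83 CPM of Rab12 (others 8.34 to 8.38) and 86.3 CPM of Rab18 (others 79.2 to 79.6). Replicate 2 of mature Xbp1flIre1fl held 3.75 CPM of Rab23 (others 7.41 to 7.68) and 544.9 CPM of Rab10 (others 499.9 to 501.5). Replicate 4 of mature Xbp1flIre1fl held 366 CPM of Rab32 (others 324 to 330.1). Replicate 3 of immature Xbp1flIre1fl held 63.4 CPM of Rab31 (others 71.3 to 72.4), and replicate 4 of immature Xbp1fl held 74.8 CPM of Rab21 (others 64.8 to 66.3).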

How the results depend on the processing

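Of the Rab counts, scaling by library totals raised the members called lower from 10 to 16 of 48. It called 15 of 47 GEF genes higher and 19 lower, 11 of 35 GAP genes lower and 30 of 70 effector genes lower. With that scaling 22.7% of all genes were called higher and 50.9% lower, so these counts show no decrease particular to the lists. Against a 1.5-fold change, 9 members were called higher and 0 lower, with 8 called within Xbp1fl and 9 within Xbp1flIre1fl. That test left 11 GEF genes higher and 1 lower, and 6 and 2 GAP genes. It left 3 and 1 genes of the mixed list with the GDIs, 13 and 1 effector genes, and 1643 and 436 of all genes. Every other count for members and regulator lists stayed within 1.5 times its value under the other alternatives. Leaving out single libraries gave 24 to 26 members higher and 9 to 11 lower, with 3823 to 4084 of all genes higher and 3942 to 4182 lower.

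The log2 fold changes that turned sign were all of members not called, apart from Rab1. With library totals they were -0.097 for Rab1, -0.0015 for Rab13, -0.13 for Rab28, -0.16 for Rab40c, -0.22 for Rab6b and -0.12 for Rab7. With upper quartile scaling they were -0.026 for Rab28, -0.061 for Rab40c, -0.12 for Rab6b and -0.019 for Rab7. Rab6b turned to -0.015 without the filter, -0.0098 without the libraries of lowest Ccr7 and -0.044 without those richest in macrophage markers. Rab37 turned to 0.00095 with limma voom, 0.00012 on the deposited log2 values and 0.011 without the macrophage-rich libraries. Rab44 turned to 0.24 without the B cell-rich and 0.19 without the macrophage-rich libraries. Over single libraries left out, Rab6b ranged from -0.060 to 0.085, Rab44 from -0.58 to 0.24 and Rab37 from -0.14 to 0.071. The scalings differ in the median of all genes, and the cause of the other changes was not tested. With the replicate block, 26 members were higher and 10 lower (4066 and 4176 of all genes). Rab7 gained its call (log2 fold change 0.10), and no other member's call in the mean of genotypes changed. Genes under about 1 CPM, Rab4a, Rab39b and Rab44 among them, rest on few counts, which limits their precision.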

Other observations

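Among the 11 Rab symbols that were not tested, Rab36 and Rab42 differed most in their counts summed over the 8 libraries of a stage. Rab36 had 58 counts in immature and 15 in mature libraries, and Rab42 had 14 and 56. Rab27b, the paralogue of Rab27a in secretory lysosome release, had 33 counts in immature and 49 in mature libraries, 25 of them in mature Xbp1flIre1fl replicate 4. No library held more than 11 counts of Rab36 or of Rab42. These are counts with no test.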
